A study of Mus musculus with 6 samples.

Results

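Aqp4, Kcnj10, Kcnj16, Mlc1, Hepacam, Dtna, Drp2 and Slc4a4 are genes of the water and ion handling machinery of astrocytes, much of which sits in the endfeet that wrap blood vessels. They are 8 of the 32285 genes counted. They were chosen with their levels in these libraries already known, for their specificity, for their levels in 2 astroglial types and for differences between groups. Those levels, ratios and ranks are therefore given as a description, and no test was made on them.

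RNA was counted in single cells from the cortex and subventricular zone of mice aged 8 to 12 weeks, in 6 libraries, 2 per group. The groups were Cx43GlastiKO mice (titled Glast), Cx43ECiKO mice (titled Vecad) and Cx43flox/flox controls, where Cx43 is connexin 43, the product of Gja1. Per the labels, CD45-negative cells were sorted as CD31-positive, Glast-negative endothelial cells and as CD31-negative, Glast-positive neural stem and progenitor cells. The labels name floxed alleles for the controls alone and give no Cre line, inducing agent, deleted part, treatment schedule or number of animals per library.

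Endfeet carry a lattice of the water channel AQP4, held at the vessel side of the membrane by the dystrophin complex. The inward rectifier Kir4.1, alone or with Kir5.1, takes up the potassium that active neurons release, and the sodium-bicarbonate cotransporter NBCe1 sets pH beside it. MLC1 and GlialCAM form a further membrane complex, and in humans loss of either causes a vacuolating disease of white matter. Dystroglycan, dystrophin and their partners link this machinery to the vessel's basement membrane.

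Kcnj10 and Kcnj16 encode partner subunits of the same channel, and their RNA levels differed between types and groups in different ways. The 250 bases before their starts are therefore printed, from RefSeq on GRCm38.p6, 5′ to 3′ on the plus strand, with matches to the NFI motif TTGGC on either strand in capitals. The Kcnj10 window is chr1:172340960-172341209 and the Kcnj16 window is chr11:110967783-110968032, before the first of 4 Kcnj16 starts in RefSeq.
Kcnj10: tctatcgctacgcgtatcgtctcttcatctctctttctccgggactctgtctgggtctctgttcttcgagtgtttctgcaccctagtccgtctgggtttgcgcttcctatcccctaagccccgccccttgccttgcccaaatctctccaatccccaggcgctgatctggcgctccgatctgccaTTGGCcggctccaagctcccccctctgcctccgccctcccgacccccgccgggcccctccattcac
Kcnj16: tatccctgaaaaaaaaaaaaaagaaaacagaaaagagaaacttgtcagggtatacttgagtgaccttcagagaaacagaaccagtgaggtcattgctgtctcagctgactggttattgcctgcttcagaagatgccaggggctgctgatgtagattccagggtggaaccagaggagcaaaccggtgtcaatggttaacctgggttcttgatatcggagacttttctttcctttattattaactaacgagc
NFI factors drive many astrocyte genes. The Kcnj10 window holds 1 match to TTGGC and the 4 Kcnj16 windows, in the order of their positions, hold 0, 1, 0 and 2, where 41.5% of 32851 mouse promoter windows of the same length hold a match. The Kcnj10 window is 62.0% G and C and the printed Kcnj16 window 42.8%. The SOX core ATTGTT, also searched on both strands, is in 9.42% of the windows and the E-box CANNTG in 66.2%, and none of these motifs contains another. RefSeq windows were matched for 5 of the 8 genes (9 windows: 4 of Kcnj16, 2 of Slc4a4 and 1 each of Kcnj10, Mlc1 and Hepacam). The SOX core is in none of the 9, and Mlc1 and Hepacam hold 1 and 2 matches to TTGGC and the Slc4a4 windows 2 and 1. A match describes the letters of the window and shows no binding.

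On mm10 Aqp4 (ENSMUSG00000024411) spans 15389496 to 15410982 of chromosome 18 on the minus strand. Dtna (ENSMUSG00000024302) spans 23415135 to 23659715 of the same chromosome, plus strand. Kcnj10 (ENSMUSG00000044708) spans 172341210 to 172374085 of chromosome 1, and Kcnj16 (ENSMUSG00000051497) spans 110968033 to 111027968 of chromosome 11, both on the plus strand. Mlc1 (ENSMUSG00000035805) spans 88955884 to 88979007 of chromosome 15 on the minus strand, and Hepacam (ENSMUSG00000046240) spans 37367351 to 37386575 of chromosome 9 on the plus strand. Drp2 (ENSMUSG00000000223) spans 134404551 to 134456573 of chromosome X, and Slc4a4 (ENSMUSG00000060961) spans 88886818 to 89239653 of chromosome 5, both on the plus strand. In GENCODE, Aqp4 overlaps AC133525.2 and Dtna overlaps Gm47898, both on the opposite strand. The strand setting of the counting is not given in the sources used here, so reads of these pairs may not be told apart.

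The libraries held 1319, 2674 and 1076 barcodes in GlastiKO, ECiKO and control replicate 2, and 710, 571 and 1083 in replicate 1 of the same groups. Total depth ran between 1735247 and 14859187 UMIs (unique molecular identifiers, 1 per captured RNA molecule). Barcodes with 300 or more genes detected and no more than 20% of UMIs from mitochondrial genes were assigned to 11 cell types by marker lists that hold none of the 8 genes. In replicate 1, 497 barcodes of GlastiKO, 410 of ECiKO and 773 of control passed these limits. Of these, 90.5 to 96.6% per library were endothelial, with 2 to 6 astroglial barcodes. The values below therefore come from replicate 2 unless said otherwise. Which sorted fraction went into which library is not given in the labels. Oligodendrocyte barcodes, a type that neither sort names, were the largest class of replicate 2, with 606 in GlastiKO, 1949 in ECiKO and 449 in control. Astroglial barcodes numbered 413 in GlastiKO, 158 in ECiKO and 407 in control, 978 of 7433 deposited barcodes. Their median depth was 4574 UMIs in GlastiKO, 976.5 in ECiKO and 3761 in control. All 6 markers of the astroglial list were detected in each of these libraries, with a summed level of 11035, 11727 and 12673 CPM, where CPM is the count scaled to the summed UMIs of the same cell type and library. Oligodendrocyte markers (6 of 6 detected) summed to 81.5, 104 and 64.5 CPM there, against 20277, 16777 and 19153 CPM in oligodendrocyte barcodes of GlastiKO, ECiKO and control. Pairs of libraries shared 5 barcode sequences in all, at most 1 per pair.

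Gja1, the targeted gene, was not lower in the cells that the group names point to. In astroglial barcodes it stood at 2491 CPM in the library labelled GlastiKO, 2532 CPM in the library labelled ECiKO and 2552 CPM in control. In endothelial barcodes of replicates 1 and 2 it stood at 234 and 209 CPM under the ECiKO label, against 74.4 and 79.6 CPM in control. Under the GlastiKO label it stood at 140 and 131 CPM there. The replicate 2 values rest on 8 UMIs in ECiKO, 28 in GlastiKO and 9 in control. 3′-end counting can still count a transcript that lost an upstream part, but whether that happened here was not tested. Directions between groups are therefore given for libraries as labelled, here and below.

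All 8 genes had their highest observed level in astroglial barcodes in each of the 3 libraries, among the cell types with 20 barcodes or more. For Kcnj16 and Drp2 of ECiKO the 0 endothelial UMIs cannot settle this order. At 3 endothelial counts the ratios of astroglia over endothelial barcodes would be 0.579 and 0.443. Among the types with 20 barcodes or more 3 patterns were seen. In the first, 5 genes were almost confined to astroglia. Dtna had a low oligodendrocyte level, and Kcnj10 and Hepacam were high in oligodendrocytes too. Oligodendrocyte precursors, with 2 or 3 barcodes per library, were left out. In control they gave 4 UMIs of Kcnj16 (128 against 126 CPM in astroglia) and 2 of Drp2 (63.8 against 31.4 CPM). In GlastiKO they gave 1 of Kcnj16 (36.4 against 67.2 CPM) and 3 of Drp2 (109 against 69.0 CPM). A gene counted as higher in astroglia from a 2-fold ratio in every library and 100 UMIs. Against oligodendrocytes 4 of the 6 genes that passed the minimum did so (Aqp4, Mlc1, Dtna and Slc4a4), where 10.7% of 5558 genes did. Kcnj16 was under the minimum in the library labelled ECiKO, and Drp2 in that library and in control. Against endothelial barcodes 6 of 6 did so, where 45% of 469 genes did. These 6 had at most 2 endothelial UMIs in a library. They reached the minimum through their astroglial UMIs, which fixed the call. The genes were chosen on these ratios, so the counts describe the choice.

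**Figure D1:**
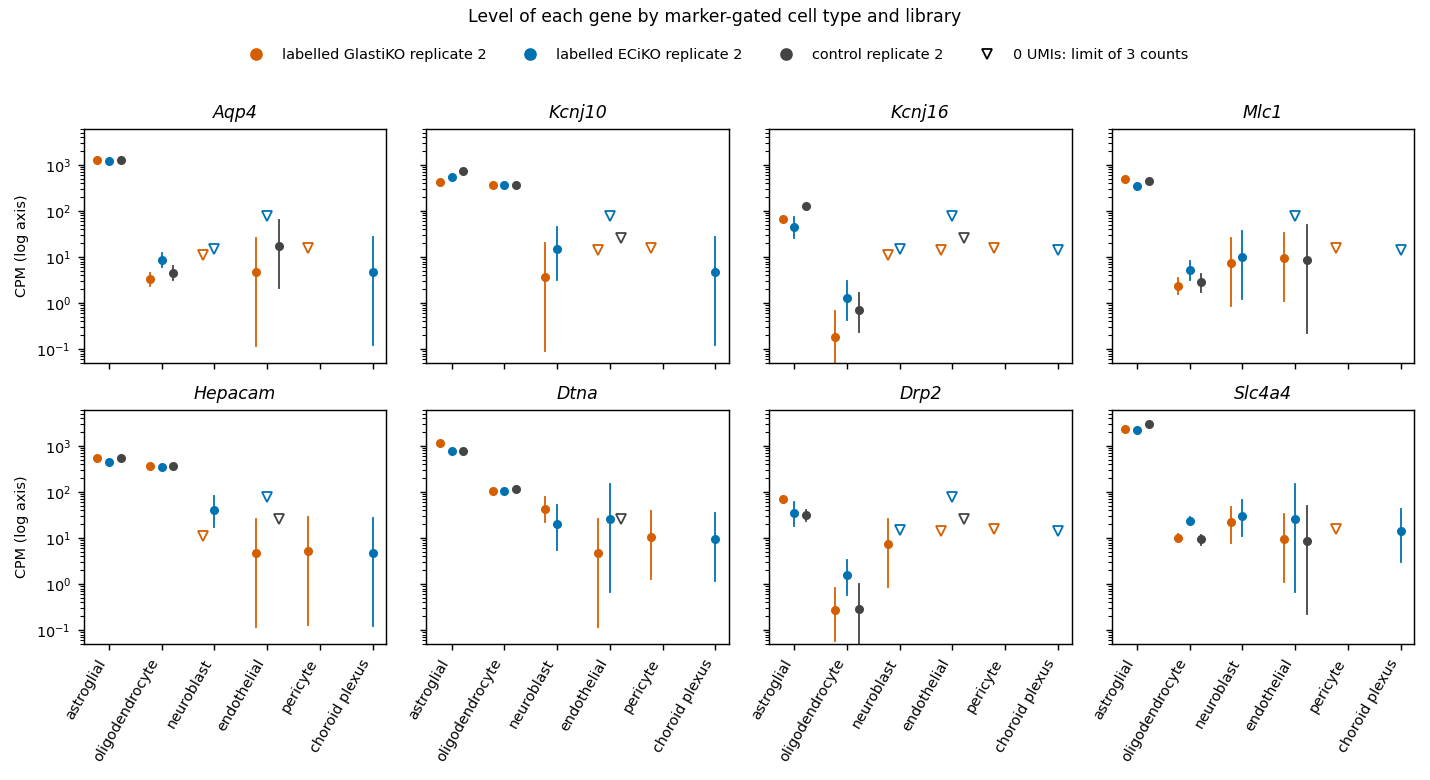
Level of each gene (CPM, log axis) in marker-gated cell types of the replicate 2 libraries with at least 20 barcodes of the type; lines are 95% exact Poisson intervals and open triangles stand at 3 counts where there were 0 UMIs. Kcnj10 and Hepacam lie between 351 and 376 CPM in oligodendrocytes, while Aqp4, Kcnj16, Mlc1, Drp2 and Slc4a4 lie at or under 23.7 CPM there.

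Aqp4, the water channel itself, had 1273 CPM in astroglial barcodes of the library labelled GlastiKO (2767 UMIs), 1192 CPM under the ECiKO label (446 UMIs) and 1253 CPM in control (2311 UMIs). The astroglial levels of the 3 libraries thus lay close together. In oligodendrocyte barcodes it had 3.34, 8.86 and 4.55 CPM in the same order of libraries, and the mean log2 ratio of astroglia over oligodendrocytes was 7.92 ± 0.77 (SD, n = 3 libraries). In endothelial barcodes 1, 0 and 2 UMIs were seen.

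Dtna and Drp2 belong to the dystrophin side of the anchor. Dtna encodes alpha-dystrobrevin, which binds dystrophin and syntrophins, and Drp2 a short dystrophin relative that is best known from Schwann cells. Dtna stood at 1161 CPM in astroglia of the library labelled GlastiKO (95% exact Poisson interval 1116 to 1207), 762 CPM under the ECiKO label (676 to 856) and 792 CPM in control (751 to 833). The GlastiKO library was the highest of the 3, and the other intervals overlapped. In oligodendrocytes Dtna had 104, 104 and 118 CPM, and the astroglial level was higher by a log2 ratio of 3.03 ± 0.39 (SD, n = 3 libraries). Dtna was also seen in neuroblasts, with 43.7 CPM (22.6 to 76.3, 12 UMIs) under the GlastiKO label and 20.4 CPM (5.57 to 52.3, 4 UMIs) under the ECiKO label. Drp2 gave few UMIs, with 69.0, 34.8 and 31.4 CPM in astroglia from 150, 13 and 58 UMIs. Its oligodendrocyte counts were 3, 6 and 2 UMIs, at most 1.56 CPM.

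Kcnj10, which encodes Kir4.1, had 417 CPM in astroglia of the library labelled GlastiKO (906 UMIs), 540 CPM under the ECiKO label (202 UMIs) and 723 CPM in control (1333 UMIs). Here the control library was highest. In oligodendrocytes, where Kir4.1 is also known to clear potassium around myelinated axons, it had 376, 365 and 376 CPM, nearly the same in all 3. Its partner Kcnj16, which encodes Kir5.1 and forms no working channel by itself in most settings, had 67.2 CPM in astroglia under the GlastiKO label (146 UMIs), 45.5 CPM under the ECiKO label (17 UMIs) and 126 CPM in control (233 UMIs). In oligodendrocytes Kcnj16 had 2, 5 and 5 UMIs, or 0.185, 1.30 and 0.711 CPM. Both genes were thus present in astroglia, while oligodendrocytes held Kcnj10 and almost no Kcnj16. For every 100 Kcnj10 UMIs there were 16.1 Kcnj16 UMIs in astroglia of GlastiKO (interval 13.4 to 19.2), 8.42 of ECiKO (4.81 to 13.8) and 17.5 of control (15.1 to 20.1). In oligodendrocytes the same ratio was 0.0492, 0.357 and 0.189.

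Slc4a4, which encodes NBCe1, had 2296 CPM in astroglia under the GlastiKO label, 2195 CPM under the ECiKO label and 2990 CPM in control (4990, 821 and 5515 UMIs). In oligodendrocytes it had 9.92, 23.7 and 9.38 CPM, a mean log2 ratio of 7.57 ± 0.93 (SD, n = 3 libraries). A few UMIs appeared in neuroblasts, 6 under each of the GlastiKO and ECiKO labels.

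Mlc1 and Hepacam encode the membrane protein MLC1 and its chaperone GlialCAM, which brings MLC1 and the chloride channel ClC-2 to cell junctions. Mlc1 had 486, 342 and 442 CPM in astroglia of the libraries labelled GlastiKO and ECiKO and of control, against 2.41, 5.21 and 2.84 CPM in oligodendrocytes. Hepacam had 537, 460 and 538 CPM in astroglia and 374, 351 and 376 CPM in oligodendrocytes. The 2 genes of 1 complex therefore differed in where they were found: Hepacam was shared by both glial classes and Mlc1 was almost absent from oligodendrocytes. The log2 ratio of astroglia over oligodendrocytes was 0.48 ± 0.08 for Hepacam and 6.99 ± 0.85 for Mlc1 (SD, n = 3 libraries each).

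Free RNA released from broken cells can put astroglial UMIs into any droplet, so the oligodendrocyte levels were set beside those of Slc1a2, Acsbg1 and Mmd2, astroglial genes outside the gate and the 8. Together these had in oligodendrocytes 0.749% of their astroglial level in GlastiKO, 1.45% in ECiKO and 0.842% in control. Aqp4 had 0.262, 0.743 and 0.363% of its astroglial level there, Slc4a4 0.432, 1.08 and 0.314%, and Mlc1 0.496, 1.52 and 0.643%. Kcnj16 and Drp2 rested on 2 to 6 oligodendrocyte UMIs, with 0.276, 2.87 and 0.563% and with 0.403, 4.50 and 0.904%. Aqp4, Slc4a4 and Mlc1 were near or under the comparison genes, and Slc1a2, Aqp4, Slc4a4 and Mlc1 were each highest in the library labelled ECiKO. Dtna had 8.99, 13.6 and 14.9%. Hepacam had 69.6, 76.3 and 69.9% and Kcnj10 90.3, 67.5 and 52.0%. The oligodendrocyte levels of Dtna, Hepacam and Kcnj10 thus stood far above the level that the comparison genes gave in the same barcodes.

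**Figure D2:**
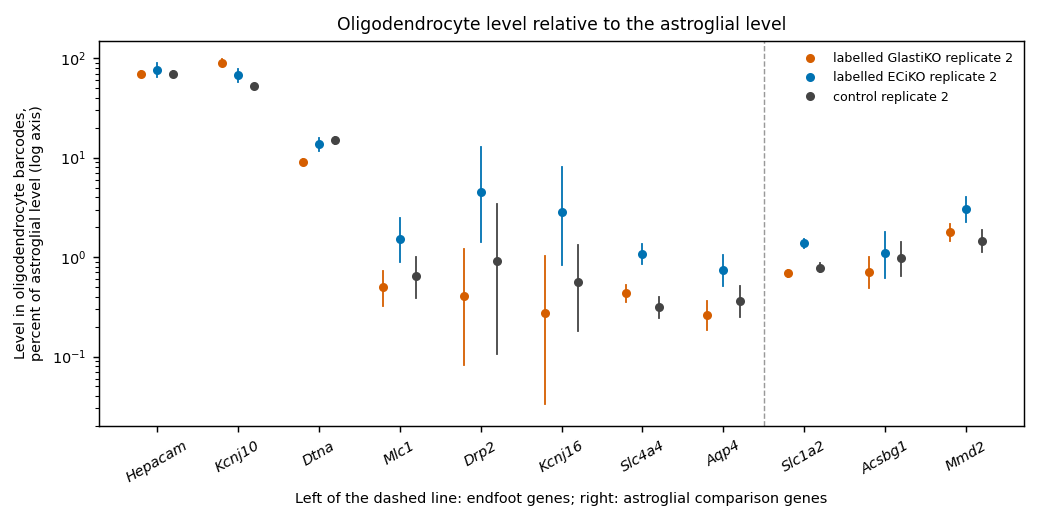
Level in oligodendrocyte barcodes as a percent of the astroglial level of the same library (log axis) for the 8 genes, left of the dashed line, and 3 astroglial comparison genes, right of it; lines are 95% intervals of the ratio. Hepacam, Kcnj10 and Dtna lie between 8.99 and 90.3%, above the comparison genes, which lie between 0.687 and 3.03%.

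In endothelial barcodes the genes were at or near 0. In replicate 1, the deep endothelial libraries, all 8 genes together had 6 UMIs in 450 endothelial barcodes under the GlastiKO label, 3 in 396 under the ECiKO label and 3 in 701 of control, or 3.82, 2.37 and 1.23 CPM. Kcnj16, Drp2 and Aqp4 had 0 UMIs in each of these.

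Oligodendrocyte barcodes were also divided by Klk6 and Il33, genes that mark different mature oligodendrocytes, a division made after earlier results of these data were seen. Hepacam was lower in Klk6 than in Il33 barcodes, at 265 against 415 CPM in GlastiKO, 294 against 437 CPM in ECiKO and 277 against 412 CPM in control. The ratios were 0.638, 0.673 and 0.672, each with an interval under 1. Kcnj10 went the other way by less, with ratios of 1.25 (1.15 to 1.36), 1.09 (0.952 to 1.25) and 1.10 (0.992 to 1.23). The 2 genes that oligodendrocytes share with astroglia were thus not distributed alike among them.

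Astroglial barcodes were divided by Agt and Slc6a11 on one side and a list with Lhx2, Mfge8 and Dmrta2 on the other, none of them among the 8. Agt encodes angiotensinogen and Slc6a11 a GABA transporter, while Lhx2 is a transcription factor of the developing forebrain. The Agt type held 122 barcodes in GlastiKO, 63 in ECiKO and 266 in control (29.5, 39.9 and 65.4% of astroglia). The Lhx2 type held 109, 31 and 47 barcodes (26.4, 19.6 and 11.5%), and 44.1, 40.5 and 23.1% fell in neither. The makeup of the astroglia thus differed between the libraries.

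Kcnj10 was the gene among the 8 with the largest difference between these types. It had 848 CPM in the Agt type against 207 CPM in the Lhx2 type of the library labelled GlastiKO. Under the ECiKO label the values were 969 against 275 CPM, and in control 934 against 236 CPM. The ratio of Agt over Lhx2 type was 4.10 (95% exact interval 3.38 to 5.004), 3.52 and 3.96, a mean log2 ratio of 1.95 ± 0.11 (SD, n = 3 libraries), so the libraries differed little. Slc4a4 was also higher in the Agt type, with 3352 against 1675 CPM in GlastiKO, 2866 against 1625 CPM in ECiKO and 3373 against 2004 CPM in control (ratios 2.00, 1.76 and 1.68; mean log2 ratio 0.86 ± 0.13). These 2 were past a 1.5-fold ratio in every library among 6 genes with enough UMIs, where 5.71% of 245 genes were. None of the 6 was past it in the other direction in every library, where 11% of 245 genes were.

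**Figure D3:**
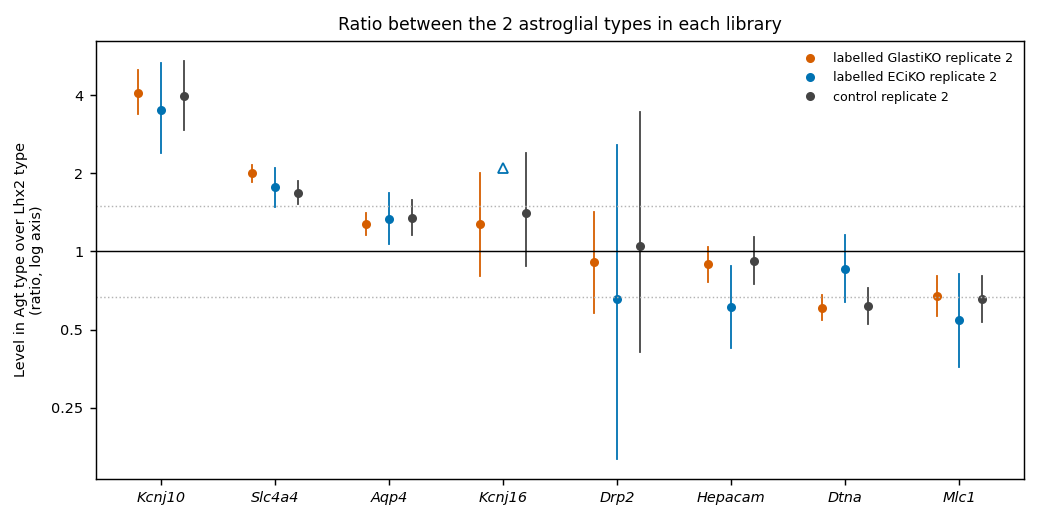
Ratio of the level in the Agt type over the Lhx2 type of astroglia (log axis) in each replicate 2 library, with 95% exact intervals; dotted lines mark 1.5-fold and the open triangle is the lower bound for Kcnj16 in the library labelled ECiKO, where the Lhx2 type had 0 UMIs. Kcnj10 lies between 3.52 and 4.10 and Mlc1 between 0.543 and 0.673.

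The remaining genes were not past 1.5-fold in every library. Aqp4 was somewhat higher in the Agt type in each library, with ratios of 1.28, 1.34 and 1.35 (mean log2 ratio 0.40 ± 0.04). Mlc1 was lower in the Agt type as divided here, at 349 against 519 CPM in GlastiKO, 285 against 524 CPM in ECiKO and 396 against 605 CPM in control. Its ratios of 0.673, 0.543 and 0.655 put it just short of 1.5-fold in 1 library. Dtna had ratios of 0.607, 0.859 and 0.614 and Hepacam of 0.891, 0.613 and 0.920, where the ECiKO values rest on 56 to 97 UMIs per type and their intervals (0.638 to 1.16 for Dtna and 0.424 to 0.882 for Hepacam) overlap those of the other libraries. The directions of Mlc1 and Hepacam depend on Mfge8 as a marker of the Lhx2 type. Without it, the library labelled GlastiKO alone kept 20 barcodes of both types, and its log2 ratios were 0.03 for Mlc1 and 0.09 for Hepacam, against -0.57 and -0.17 with it. Kcnj16 had smaller ratios than Kcnj10 in GlastiKO, at 1.27 (0.804 to 2.02), and in control, at 1.41 (0.876 to 2.40), with intervals that included 1. In ECiKO it had 8 UMIs in the Agt type and 0 in the Lhx2 type, with an interval of the ratio from 1.35 upward. These counts are too few to set its ECiKO ratio beside that of Kcnj10. Kcnj16 per 100 Kcnj10 UMIs was 8.92 in the Agt type and 28.8 in the Lhx2 type of GlastiKO, and 14.7 and 41.3 in those of control. Drp2 had intervals of the ratio that included 1 in all 3 libraries.

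Between groups, astroglia gave 1 usable library each, so each difference below carries counting error only and has no replicate check. Both comparisons use the same control library. In the library labelled GlastiKO, 3 of the 8 genes were past 1.5-fold against control with at least 100 UMIs (Kcnj16 and Kcnj10 lower and Drp2 higher), where 9.23% of 6262 genes were. In the library labelled ECiKO, 1 of 7 was (Kcnj16, lower), where 13.5% of 3760 genes were. Drp2 fell under the minimum there.

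**Figure D4:**
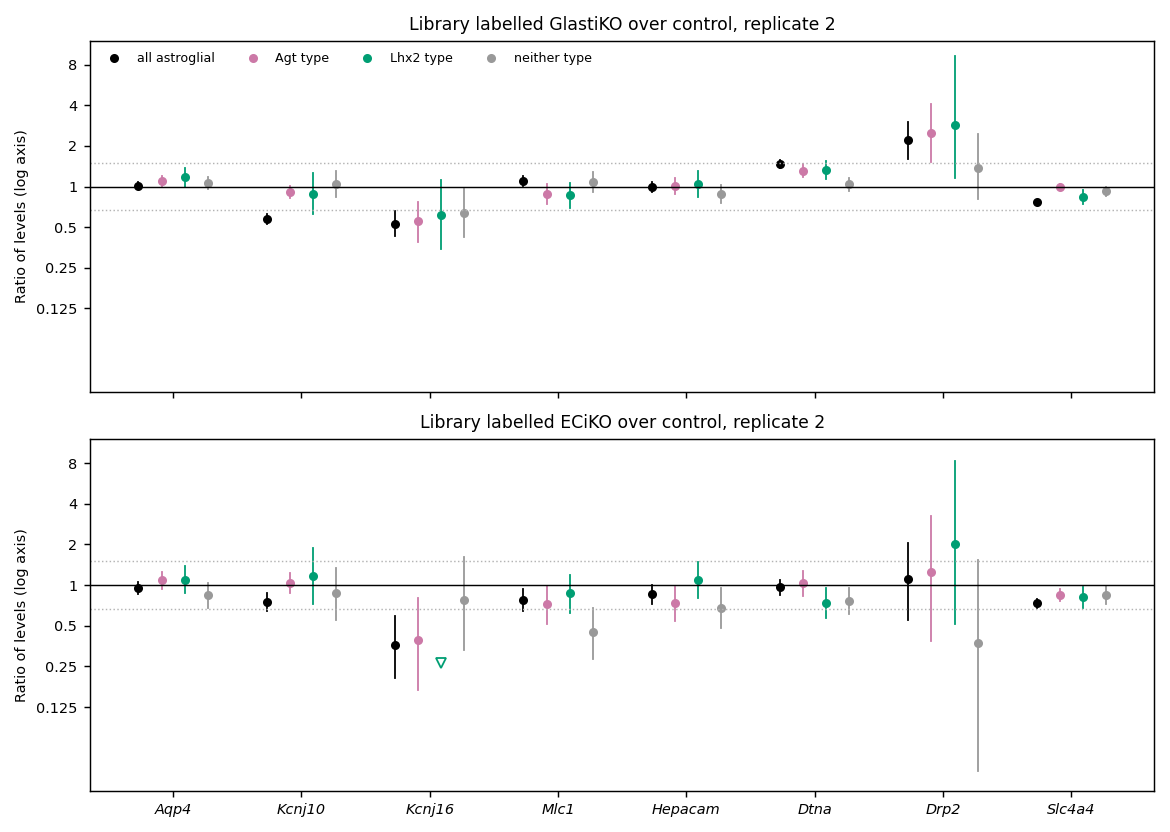
Ratio of astroglial levels (log axis) of the library labelled GlastiKO over control, top, and of that labelled ECiKO over control, bottom, for all astroglia and for the Agt type, Lhx2 type and remaining barcodes, with 95% exact intervals; the open triangle is the upper bound at 3 counts where there were 0 UMIs. Kcnj10 lies at 0.577 over all astroglia of GlastiKO and at 0.908 and 0.878 within the types, while Kcnj16 and Drp2 stay on their side of 1 within them.

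Kcnj16 was the gene among the 8 that was past 1.5-fold lower under both labels. The ratios share the same control library, and the share of all genes lower under both labels was not counted. Over all astroglia its ratio to control was 0.532 (0.430 to 0.657) for GlastiKO and 0.360 (0.206 to 0.589) for ECiKO. After thinning to 1000 UMIs per barcode, the GlastiKO ratio was 0.285 in one random draw (14 UMIs in GlastiKO, 48 in control) and 0.629 in another (27 and 42 UMIs). The ECiKO ratio was 0.210 and 0.241 in these draws, from 2 UMIs in each. Within the Agt type it had 75.7 CPM in GlastiKO and 54.2 CPM in ECiKO, against 137 CPM in control, and the ratios were 0.552 (0.387 to 0.772) and 0.395 (0.168 to 0.796). In the Lhx2 type it had 38 UMIs (59.6 CPM) in GlastiKO and 0 UMIs in ECiKO, where 3 counts are 25.8 CPM, against 19 UMIs (97.4 CPM) in control. The Lhx2 ratio for GlastiKO was 0.612 with an interval that included 1 (0.344 to 1.12). In the remaining barcodes the ratios were 0.637 (0.424 to 0.966) for GlastiKO and 0.776 (0.332 to 1.62) for ECiKO.

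Kcnj10 was lower over all astroglia of the library labelled GlastiKO, with a ratio of 0.577 (0.530 to 0.628), but not to that extent within any of the 3 divisions. The ratios were 0.908 (0.816 to 1.01) in the Agt type, 0.878 (0.623 to 1.26) in the Lhx2 type and 1.04 (0.833 to 1.31) in the remaining barcodes. After thinning to 1000 UMIs the ratio over all astroglia was 0.634 in one draw and 0.855 in the other. The Agt type, where Kcnj10 is highest, made up 29.5% of the astroglia of GlastiKO and 65.4% of those of control. For ECiKO the ratio was 0.747 (0.641 to 0.867) over all astroglia, 1.04 (0.866 to 1.24) in the Agt type, 1.17 (0.719 to 1.87) in the Lhx2 type and 0.867 (0.547 to 1.33) in the remaining barcodes. In oligodendrocytes Kcnj10 had ratios of 1.00 (0.954 to 1.05) for GlastiKO and 0.970 (0.909 to 1.04) for ECiKO.

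Slc4a4 behaved like Kcnj10 in this respect for GlastiKO, with a ratio of 0.768 (0.739 to 0.798) over all astroglia and of 0.994 (0.941 to 1.05) in the Agt type, 0.836 (0.744 to 0.941) in the Lhx2 type and 0.922 (0.851 to 0.9997) elsewhere. For ECiKO it was 0.734 over all astroglia and 0.850, 0.811 and 0.846 in the divisions. None of these astroglial ratios was past 1.5-fold, and each of the 4 ECiKO intervals lay under 1. By the mean of CPM per barcode the ECiKO ratio was 0.664, past 1.5-fold. In oligodendrocytes, where the levels are near those of free RNA, the ECiKO ratio was 2.53 (1.82 to 3.53).

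Drp2 was higher in the library labelled GlastiKO, with a ratio of 2.20 (1.61 to 3.03) over all astroglia from 150 UMIs, against 58 in control. After thinning to 1000 UMIs per barcode its ratio was smaller. It was 1.495 in one draw (26 UMIs in GlastiKO, 17 in control) and 1.71 in the other (28 and 16 UMIs). Within the Agt type Drp2 had 67.1 CPM in GlastiKO and 27.0 CPM in control, a ratio of 2.49 (1.53 to 4.06). Within the Lhx2 type it had 73.7 CPM in GlastiKO and 25.6 CPM in control, a ratio of 2.88 (1.15 to 9.27) that rests on 5 control UMIs. In the remaining barcodes the ratio was 1.37 (0.813 to 2.43). For ECiKO it was 1.11 (0.556 to 2.04), from 13 UMIs. Dtna, the other gene of the dystrophin side, lay just short of 1.5-fold in GlastiKO, with a ratio of 1.47 (1.37 to 1.57) over all astroglia, 1.31 (1.17 to 1.47) in the Agt type, 1.33 (1.14 to 1.56) in the Lhx2 type and 1.04 (0.929 to 1.16) in the rest. For ECiKO the Dtna ratio was 0.963 (0.845 to 1.09).

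Aqp4, Hepacam and Mlc1 stood near control over all astroglia of the library labelled GlastiKO, with ratios of 1.02 (0.961 to 1.07), 0.999 (0.917 to 1.09) and 1.10 (1.00 to 1.21). Mlc1 of GlastiKO was at 0.882 (0.746 to 1.04) in the Agt type, 0.858 (0.694 to 1.07) in the Lhx2 type and 1.07 (0.909 to 1.27) elsewhere. In ECiKO the ratios over all astroglia were 0.952 (0.858 to 1.05) for Aqp4, 0.855 (0.723 to 1.01) for Hepacam and 0.775 (0.638 to 0.934) for Mlc1. Hepacam of ECiKO was at 0.731 (0.546 to 0.962) in the Agt type, 1.10 (0.804 to 1.49) in the Lhx2 type and 0.682 (0.482 to 0.945) elsewhere. Outside the Agt and Lhx2 types Mlc1 of ECiKO was at 0.446 (0.282 to 0.678), from 25 UMIs. When the GlastiKO comparison was required to hold in both types, 0 of 6 genes with enough UMIs were past 1.5-fold, where 0.324% of 1236 genes were, while Kcnj16 and Drp2 were under the minimum.

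Detection was compared after every barcode was thinned to 1000 UMIs, which left out 10 shallower astroglial barcodes of GlastiKO, 80 of ECiKO and 13 of control. Slc4a4 was then detected in 82.9, 78.2 and 85.5% of the barcodes of GlastiKO, ECiKO and control, Aqp4 in 65.0, 64.1 and 60.2% and Dtna in 65.8, 57.7 and 55.6%. Before thinning, Aqp4 was detected in 89.1, 60.1 and 85.0%, so that the low share of ECiKO at deposited depth went with its shallow barcodes. Kcnj10 was detected in 33.7, 32.1 and 35.0% of thinned barcodes, with overlapping intervals.

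Kcnj16 was detected in 5.71% of thinned barcodes in GlastiKO (23 of 403, Clopper-Pearson interval 3.65 to 8.44%), 1.28% in ECiKO (1 of 78, 0.0325 to 6.94%) and 9.90% in control (39 of 394, 7.13 to 13.3%). Before thinning it was detected in 23.2, 8.86 and 35.4%. Drp2 was detected in 6.70% (4.46 to 9.60%), 1.28% (0.0325 to 6.94%) and 3.81% (2.15 to 6.20%) after thinning, intervals that overlap. In thinned oligodendrocyte barcodes Kcnj16 was seen in 0 of 603, 0 of 660 and 0 of 435, which by 3 counts allows shares of barcodes with a UMI of up to 0.498, 0.455 and 0.690% at that depth. At deposited depth it was seen in 0.330, 0.205 and 1.11% of them. The thinned Kcnj16 levels rest on very few UMIs, so no order is read from them for ECiKO.

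**Figure D5:**
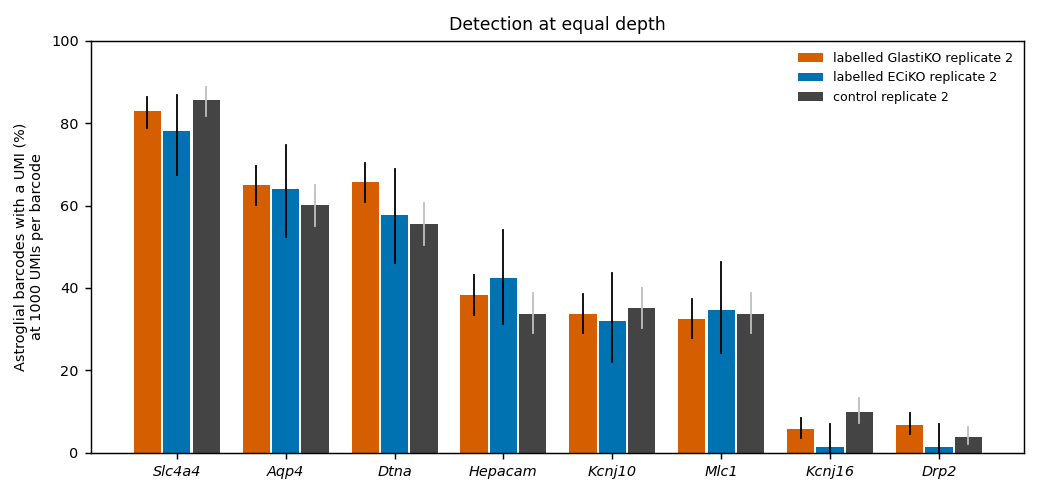
Percent of astroglial barcodes with at least 1 UMI of each gene after thinning to 1000 UMIs per barcode, for the 3 replicate 2 libraries; lines are 95% Clopper-Pearson intervals. Slc4a4 was detected in 78.2 to 85.5% of barcodes and Kcnj16 in 1.28 to 9.90%.

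A thinned astroglial barcode held a median of 3 of the 8 genes in each library, against 1, 0 and 1 in oligodendrocytes and 0 in endothelial barcodes of GlastiKO, ECiKO and control. At most 1.02% of the thinned astroglial barcodes of a library held none. Across thinned astroglial barcodes the 28 pairs of genes had median Pearson correlations of 0.00408, -0.00319 and 0.0212 in GlastiKO, ECiKO and control, where pairs share a library, a depth and sparse counts. The highest was 0.382, in ECiKO. In counts this sparse, weak correlations are no finding.

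Other genes of the same machinery were described from 6 lists of 62 genes. Between astroglia and oligodendrocytes, 10.7% of 5558 genes were higher and 22.5% lower in astroglia in every library. In the dystrophin list 5 of 13 genes could be compared, and 2 were higher: Dmd, the gene of dystrophin, at 440 against 5.75 CPM in GlastiKO, and Dag1, the gene of dystroglycan, at 278 against 26.9 CPM. The median log2 ratio of the list was 1.47, and that of all 5558 genes was -0.33. Neither Dmd nor Dag1 was past 1.5-fold in either group comparison. In GlastiKO none of 8 dystrophin genes was (median log2 ratio 0.04, against 0.07 over all genes tested). In ECiKO 3 of 8 were lower, where 6.28% of 3760 genes were (median -0.32, against 0.04 over all genes tested), among them the sarcoglycan genes Sgcb, at 32.1 CPM in ECiKO against 64.5 CPM in control, and Sgce, at 29.4 against 55.8 CPM. Their ECiKO levels rest on 12 and 11 UMIs.

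Of the 8 partners of gap junctions and MLC1, 6 were higher in astroglia than in oligodendrocytes and 1 was lower, with a median log2 ratio of 7.86. Over all 5558 genes, 10.7% were higher and 22.5% lower. Gjb6, the gene of connexin 30, is among the 6 and helped to define the astroglial barcodes, so its place there is fixed by the rule. Gpr37l1, whose receptor is part of the MLC1 complex, had 1743, 1709 and 1926 CPM in astroglia of GlastiKO, ECiKO and control, against 5.93, 13.0 and 3.70 CPM in oligodendrocytes. Its relative Gpr37 went the other way, with 63.5, 61.5 and 72.1 CPM in astroglia, against 869, 739 and 907 CPM in oligodendrocytes. Gjb6 was higher in the Agt than in the Lhx2 type in every library, by a mean log2 ratio of 1.22, and Cadm1 was lower by -1.47. Atp1b1, a sodium pump subunit named as an MLC1 partner, was the only gene of this list past 1.5-fold between groups over all astroglia. It had 297 CPM in GlastiKO and 353 CPM in ECiKO, against 139 CPM in the same control library. In the GlastiKO comparison within both types Atp1b1 was under the minimum, so the part of the astroglial makeup was not tested.

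Of 6 sodium pump genes 4 could be compared between astroglia and oligodendrocytes, and Atp1b2 and Fxyd1 were among those higher in astroglia. None of 3 testable pump genes was past 1.5-fold in either group comparison. Of 12 bicarbonate and cation transporter genes other than Slc4a4, 4 reached the minimum and were lower in astroglia (Car2, Slc12a2, Slc4a2 and Slc8a1). All of these but Car2 reached it through their oligodendrocyte UMIs. Genes under the minimum went either way. Slc4a10 had 0, 2.67 and 2.17 CPM in astroglia of GlastiKO, ECiKO and control, against 6.67, 4.43 and 6.68 CPM in oligodendrocytes. Its astroglial UMIs were at most 4 in a library. Slc4a3, which encodes an anion exchanger, had 84.2, 56.1 and 66.7 CPM in astroglia of GlastiKO, ECiKO and control, against 2.87, 4.95 and 2.99 CPM in oligodendrocytes. Slc12a4, which encodes a potassium-chloride cotransporter, had 79.6, 82.9 and 86.7 CPM in astroglia, against 9.45, 5.73 and 11.4 CPM in oligodendrocytes. Of this list, Car2, the gene of carbonic anhydrase 2 and an oligodendrocyte gene, was higher in ECiKO astroglia, at 471 CPM against 299 CPM in control, where oligodendrocyte markers summed to 104 against 64.5 CPM. The part of that RNA in the Car2 value was not tested.

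Other aquaporins and inward rectifiers were weak in astroglia. Of 10 aquaporin genes Aqp9, which also carries glycerol, was the one with 100 UMIs in a group comparison, at 43.7, 45.5 and 49.3 CPM in astroglia of GlastiKO, ECiKO and control. None of 13 further Kcnj genes reached that minimum. Kcnj14 had 9, 2 and 6 UMIs in astroglia and Kcnj13 had 7, 2 and 5. Kcnj2 had 17.3, 20.6 and 19.9 CPM in oligodendrocytes and 28.0, 52.3 and 53.1 CPM in endothelial barcodes, with at most 1 UMI in astroglia of a library.

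Over 13 sums of a cell type and library, genes were ranked by the Pearson correlation of log2(CPM + 10) with the mean of the 8 genes, among 11004 genes. The 10 closest outside the gate lists were Cyp2j9 (r = 0.993), Zkscan2, Tst, Garem2, Fam228b, Sybu, Npas3, Luzp2, 3110082J24Rik and Rap1gap (r = 0.985). Cyp2j9 had 172, 174 and 245 CPM in astroglia of GlastiKO, ECiKO and control and 13.6, 12.5 and 9.95 CPM in oligodendrocytes. The 8 genes themselves ranked between 40 (Dtna) and 530 (Hepacam). Set against the mean of the other 7, Hepacam and Kcnj10 had the lowest correlations, 0.777 and 0.791, and Dtna the highest, 0.952. The sums share libraries, depth and cell types, and the correlations are a description.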

How the data were processed

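The authors deposited unnormalized UMI counts for each gene in each barcode. Cell Ranger 5.0.0 wrote them, per the file headers, on mm10 per the labels, although Cell Ranger 2.1.1 (with Seurat 4) is what the submitters' processing notes name. Libraries were made with the Chromium 3′ kit version 3.1 after digestion for 30 minutes at 37 degrees, per the labels. The authors' barcodes are those called as cells.

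The genes and all lists were chosen with earlier results of these data known, as were the type markers. A barcode was given a type from 3 UMIs of at least 2 of its 6 markers and 3 times as many as of any other type. Agt and Lhx2 types needed 2 UMIs of one list and 3 times the other. Of the barcodes within the gene and mitochondrial limits, 0.849 to 9.58% per library met no rule, mixed ones included, and got no type. No doublet caller was run. Counts were summed per type and library with 20 barcodes or more and divided by the summed total. Intervals (95%) are exact Poisson, conditional binomial or Clopper-Pearson and cover counting error only. Ratios over all genes used 0.5 UMIs as a pseudocount. Some genes of the lists are not reported here. Genes named besides the 8 were the 10 most similar in level and up to 4 of each list with the most astroglial UMIs, with others past the fold named after their values were seen. No test between groups was made, since the labels call the libraries biological replicates but 1 library per group held astroglia. The ratio procedure was tested on simulated data. Python 3.11.15, numpy 2.4.6, scipy 1.17.1, pandas 2.3.3 and matplotlib 3.10.9 were used, with GENCODE M21 positions.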

Additional observations from a re-analysis of the deposited data

Results flagged for a closer look

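The replicate 1 libraries, which the comparisons above leave out for astroglia, also held UMIs of the 8 genes. There were 96 UMIs in 6 astroglial barcodes of the library labelled GlastiKO, 21 in 2 barcodes of that labelled ECiKO and 81 in 2 barcodes of control, or 6211, 5136 and 8652 CPM. These lie far above the 3.82, 2.37 and 1.23 CPM of the endothelial barcodes of the same libraries. Kcnj16 had 4, 0 and 1 of these UMIs and Drp2 0, 1 and 0.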

How the results depend on the processing

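Kcnj16 stayed under 1 under both labels, and Kcnj10 under 1 and Drp2 above 1 in GlastiKO, in each alternative listed here that gave a value; in barcodes of neither type Kcnj10 was at 1.04. The count of 3 genes for GlastiKO became 1 after thinning to 1000 UMIs (Kcnj10) and 0 in a second random draw, added after seeing the data, 1 in the Agt type alone (Kcnj16) and 0 in the Lhx2 type alone; by the mean of CPM per barcode it was again 3, but of Kcnj16, Dtna and Drp2, with Kcnj10 at 0.674. The count of 1 for ECiKO became 2 by the mean of CPM per barcode (Kcnj16 and Slc4a4), 0 in either thinned draw and 0 in the Lhx2 type alone. Fewer genes reach 100 UMIs after thinning and within a type. The count of 2 for the Agt and Lhx2 types became 0 after thinning, where 1 of the genes passed the minimum. Leaving out 1 library gave 4 to 5 genes higher in astroglia than in oligodendrocytes, with Kcnj16 added without ECiKO replicate 2. It gave 2 to 3 genes for the astroglial types, with Mlc1 added without GlastiKO replicate 2 and Dtna added without ECiKO replicate 2. Stricter type rules and a list without Mfge8, which gave Mlc1 a log2 ratio of 0.03 and Hepacam 0.09, left 1 library with 20 barcodes of both types, and 1000 detected genes left 2. The median of all genes shifted by 0.07 (log2) for GlastiKO and 0.03 for ECiKO. No paired analysis was possible because no test between groups was made. Depth limits Kcnj16 and Drp2 most, with 17 and 13 UMIs in ECiKO astroglia.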
